A study of Ovis aries with 12 samples.

Results

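The tensins and a set of other focal adhesion proteins were followed in sheep (Ovis aries) oviduct epithelial cells during the first hours of oestradiol. The set held 10 genes, named by symbol: TNS1, TNS2, TNS3, TNS4, TLN1, VCL, ZYX, PXN, ILK and PTK2. All 10 were found among the 18340 genes of the deposited table, and all 10 were among the 12025 genes tested, those with a mean FPKM (fragments scaled to transcript length and to library size) of at least 1. The set was chosen by measured values: TNS2 ranked 5 of 12025 genes by p-value in the comparison of 1.5 h with 0 h, and the other members were added as other tensins and known focal adhesion proteins. That comparison is therefore given as a description of the members, with no test.

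The cells were scraped from the mucosa of the ampulla after trypsin digestion and kept for 12 h without serum and without phenol red, a culture dye that can act as a weak oestrogen. They then received 10 nM oestradiol (E2), the main ovarian oestrogen. The 12 libraries were 3 controls of 0 h and 3 from each of 1.5, 3.5 and 5.5 h of treatment. All 4 groups shared the starvation and the medium. No untreated libraries of the later times were analysed here, so oestradiol and time in culture cannot be told apart. The labels give no strain, age or pooling of animals, nor whether the 3 libraries of a time came from separate cultures. P-values therefore measure only how far these libraries vary, and that variation may be technical.

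Focal adhesions are the places where integrins, the transmembrane receptors for the extracellular matrix, are coupled to the actin cytoskeleton. Talin binds the integrin tail and turns the receptor on, vinculin reinforces the bond between talin and actin, and zyxin joins adhesions under tension. Paxillin is a scaffold on which kinases such as focal adhesion kinase work. Tensins are adaptors that bind integrin tails through a phosphotyrosine-binding domain and phosphotyrosine proteins through an SH2 domain. TNS1, TNS2 and TNS3 are large, and TNS4 is a short form without the actin-binding amino-terminal part. In the oviduct the epithelium rests on a basement membrane, to which integrins anchor it, and cells in culture form such contacts with the surface they spread on.

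Library totals ran from 48490974 to 79387070 counts, and no member had fewer than 916 counts in any library, the value of TNS2, where counting error alone is 3.30%. Libraries with the same number (1, 2 or 3) deviated together and were read as pairs. Except where a block for the number or alternative fits are named, standard errors (SE) and adjusted p-values come from a fit that ignored the pairs. They then also hold the spread between the numbers. Epithelial markers were abundant: EPCAM, CDH1, KRT7, KRT8 and KRT18 summed to between 13816 and 18782 CPM (counts scaled to the effective library size), and KRT8 alone had a median of 7841 CPM. PAX8, a secretory lineage factor, was at 167 to 293 CPM. MSLN, listed with PAX8, was at 96.4 to 192 CPM, and OVGP1, the defining oviduct glycoprotein, at 0.241 to 2.74 CPM. FOXJ1, the master factor of ciliated cells, was at 0 counts in 8 of 12 libraries. Of the other ciliated markers listed, TPPP3 was at 10.3 to 37.3, RSPH1 at 10.7 to 17.55 and DNAI1 at 1.53 to 4.40 CPM. CAPS was at 0 counts in 3 of 12 libraries. The 1.5 h library numbered 3 stood apart: the 6 smooth muscle markers found of 7 listed summed to 1909 CPM there and to 196, 301 and 515 CPM in the other libraries of that number. The 8 fibroblast and stroma markers found of 9 listed summed to 139 CPM there, against 17.7, 16.8 and 32.0 CPM. The general epithelium sum was also highest there (18782 against 17892 to 18286 CPM). So were the secretory (346 against 287 to 326 CPM) and ciliated sums (45.1 against 23.6 to 28.3 CPM). The endothelium sum was lowest there (66.5 against 99.8 to 111 CPM), and the immune sum (22.5 CPM) lay within the others (18.1 to 28.4 CPM). Across the times, the smooth muscle sum ran from 196 to 1025 CPM at 0 h, from 935 to 1909 CPM at 1.5 h, from 301 to 1545 CPM at 3.5 h and from 515 to 1412 CPM at 5.5 h. TAGLN made up most of that sum (182 to 1748 CPM), while DES was at 0 counts in 8 of 12 libraries. Of the other smooth muscle markers found, CNN1 was at 3.05 to 117 CPM and ACTA2 at 6.59 to 39.4 CPM. MYH11 was at 3.51 to 5.08 CPM and ACTG2 at 1.16 CPM at most. Fewer cells of a type and less RNA per cell cannot be told apart in such bulk libraries.

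The members covered a wide range of levels per transcript length. ILK (mean 168 FPKM), ZYX (165 FPKM), TNS4 (123.1 FPKM), TLN1 (98.0 FPKM) and VCL (91.3 FPKM) were the highest, and each overlapped the next in that order over the 12 libraries. PXN (39.7 FPKM) lay below VCL in 12 of 12 libraries with no overlap, since the highest PXN value was 46.1 FPKM and the lowest VCL value 68.1 FPKM. PTK2 (24.7 FPKM) lay below PXN and above TNS1 (15.0 FPKM), again without overlap. TNS1 and TNS3 (11.4 FPKM) overlapped, and TNS1 was the higher in 9 of 12 libraries. TNS2 was the lowest member at 4.96 FPKM, with a highest value of 6.33 FPKM against a lowest TNS3 value of 7.82 FPKM. Among the tensins, then, the short TNS4 was the most abundant in every library. By mean FPKM, TNS2 lay at percentile 26.1 of the tested genes, TNS3 at 47.2, TNS1 at 54.7, TNS4 at 93.4 and ILK at 95.3.

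**Figure D1:**
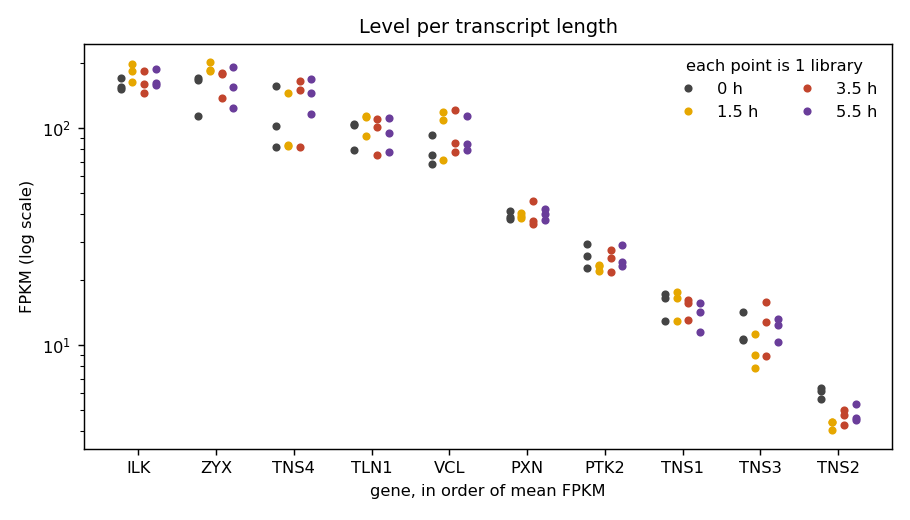
FPKM (log axis) of the 10 members in each of the 12 libraries, 1 point per library, coloured by time of oestradiol and ordered by mean FPKM. ILK, ZYX, TNS4, TLN1 and VCL share a range of 68.1 to 201 FPKM, PXN and PTK2 lie apart below them, and TNS2 is lowest at 4.05 to 6.33 FPKM.

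TNS2 encodes tensin 2, which differs from its relatives by a C1 domain near its amino terminus. Its gene (ENSOARG00000016737) lies on chromosome 3 from 133238048 to 133250878 on the minus strand in the authors' coordinates, for which no source used here gives the genome build. At 0 h it measured 26.4, 24.3 and 26.8 CPM in the libraries numbered 1, 2 and 3. At 1.5 h it measured 19.3, 19.2 and 17.9 CPM. The groups of 0 h and 1.5 h did not overlap. TNS2 stood at 21.9, 18.6 and 20.4 CPM at 3.5 h and at 19.6, 23.0 and 19.5 CPM at 5.5 h. The mean was 25.8 ± 1.36 CPM at 0 h and 18.8 ± 0.804 CPM at 1.5 h, the lowest of the 4 times (SD, n = 3). It was 20.3 ± 1.65 CPM at 3.5 h, and 5.5 h had 20.7 ± 1.98 CPM. All 9 libraries with oestradiol lay below all 3 libraries of 0 h. The gene was picked on those 0 h libraries, and the share of all tested genes with such a split was not counted.

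As a description, TNS2 differed from 0 h by −0.46 ± 0.11 (log2 difference ± SE) at 1.5 h, or −27.1% on the linear scale, by −0.35 ± 0.11 at 3.5 h and by −0.32 ± 0.11 at 5.5 h. All 3 comparisons share the 0 h libraries on which the gene was picked, so the later values are not independent of the first. Each pair went the same way: −0.45, −0.33 and −0.58 at 1.5 h, −0.27, −0.38 and −0.40 at 3.5 h, and −0.43, −0.08 and −0.46 at 5.5 h. Against 1.5 h, which also took part in the choice, TNS2 differed by 0.11 ± 0.11 at 3.5 h and by 0.14 ± 0.11 at 5.5 h. The groups of 5.5 h and 1.5 h narrowly did not overlap (lowest 19.5 CPM against highest 19.3 CPM), and no share of all tested genes is given for this. The comparison of 5.5 h with 3.5 h is the one that shares no library with the choice, and there the log2 difference was 0.03 ± 0.11 (edgeR quasi-likelihood, adjusted p = 1.00). With the 1.5 h library numbered 3 left out and the number as a block, the difference at 1.5 h was −0.42 ± 0.12.

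TNS1 encodes tensin 1, the founding member of the family, and lies on chromosome 2 (218897659 to 219103131). It measured 103, 99.0 and 76.2 CPM at 0 h and 78.6, 100.2 and 108 CPM at 1.5 h. At 3.5 h it measured 98.3, 94.7 and 77.9 CPM, and at 5.5 h 86.3, 93.6 and 67.9 CPM. All times overlapped, and number 3 was the lowest library at every time but 1.5 h, where it was the highest. The pairs at 1.5 h went in opposite directions, at −0.39, 0.02 and 0.51 on the log2 scale. At 5.5 h against 0 h all 3 pairs were negative (−0.25, −0.08 and −0.17), and the log2 difference was −0.17 ± 0.17 (edgeR quasi-likelihood, adjusted p = 1.00).

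TNS3 encodes tensin 3, known in human mammary epithelial cells as the tensin that gives way to TNS4 under epidermal growth factor. It measured 53.1, 53.3 and 70.6 CPM at 0 h and 57.3, 46.0 and 40.5 CPM at 1.5 h. The values were 65.6, 45.1 and 79.4 CPM at 3.5 h and 62.8, 52.0 and 65.2 CPM at 5.5 h. Groups overlapped at every time, and the lowest and highest values of the 12, 40.5 and 79.4 CPM, both came from libraries numbered 3. Its log2 difference from 0 h was −0.30 ± 0.21 at 1.5 h, and the pair numbered 3 gave −0.80. With that 1.5 h library left out and the number as a block it was −0.07 ± 0.12. At 3.5 h and 5.5 h against 0 h it was 0.10 ± 0.21 and 0.02 ± 0.21.

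TNS4 was the most variable member. It measured 255, 206 and 386 CPM at 0 h and 370, 211 and 216 CPM at 1.5 h. The values were 383, 208 and 413 CPM at 3.5 h and 425, 292 and 362 CPM at 5.5 h, so the highest library held 2.06 times the lowest. The libraries numbered 2 were low at every time, with a mean of 229 ± 41.9 CPM (SD over the 4 times), against 358 ± 72.8 for number 1 and 344 ± 87.9 for number 3. Groups overlapped throughout. The log2 difference from 0 h was −0.09 ± 0.32 at 1.5 h, 0.24 ± 0.32 at 3.5 h and 0.35 ± 0.32 at 5.5 h (edgeR quasi-likelihood, adjusted p = 1.00 for the 2 later times). The lowest adjusted p of TNS4 at 5.5 h over 23 alternative fits in edgeR, DESeq2 or limma was 0.119. At 1.5 h the pairs were 0.54, 0.04 and −0.84. Without the 1.5 h library numbered 3 and with the number as a block, the value was 0.18 ± 0.17. At 5.5 h against 1.5 h all 3 pairs were positive (0.20, 0.47 and 0.74), as they were for TNS3 (0.13, 0.18 and 0.69) and TNS2 (0.02, 0.26 and 0.13), 3 of 10 members, where 14.3% of all tested genes were. TNS2 was picked on the 1.5 h libraries too, so its place in that count is not independent of the choice. TNS1 had pairs of 0.13, −0.10 and −0.67 at 5.5 h against 1.5 h, a difference of −0.21 ± 0.17. For TNS4 that difference was 0.43 ± 0.32 and for TNS3 0.33 ± 0.21, each with an adjusted p of 1.00 (edgeR quasi-likelihood). Leaving out the same library under the block gave 0.20 ± 0.17 for TNS4 and 0.09 ± 0.12 for TNS3.

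**Figure D2:**
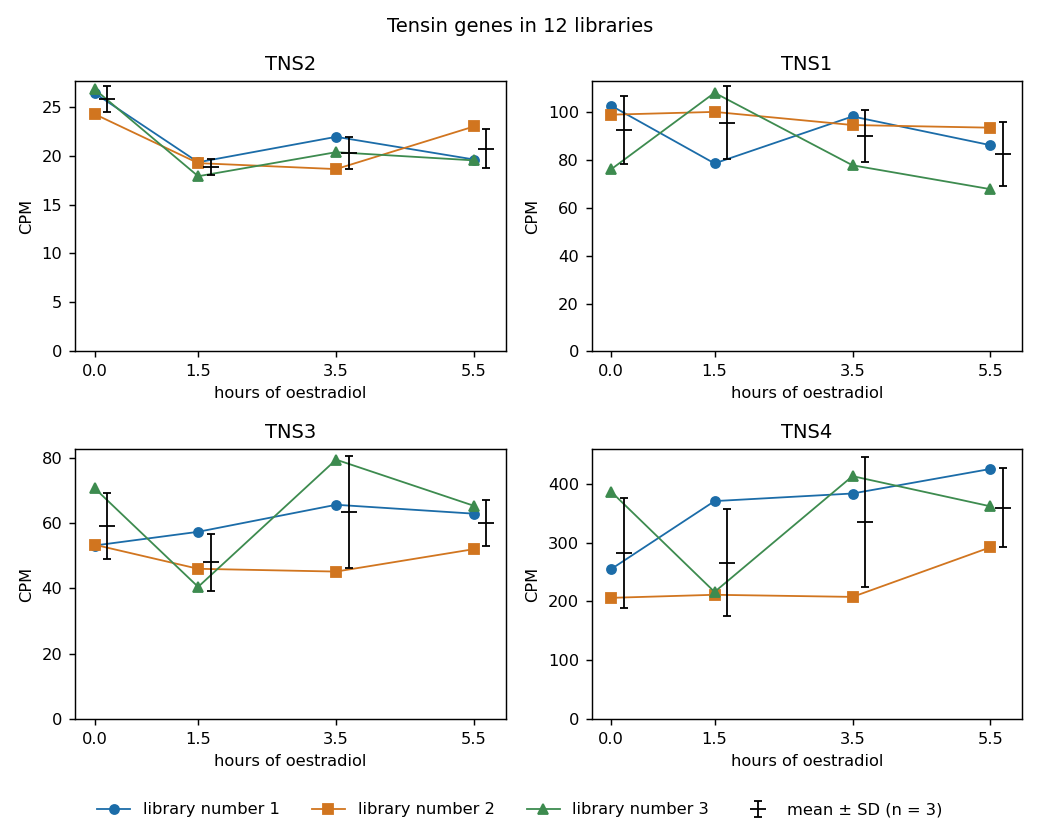
CPM of the 4 tensin genes against hours of oestradiol, 1 line per library number, with the mean ± SD of 3 libraries beside the points. TNS2, picked on the 0 h and 1.5 h libraries, lies at 0 h (24.3 to 26.8 CPM) above its other 9 values. TNS1, TNS3 and TNS4 overlap at all times, and their lines of number 3 break away at 1.5 h.

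TLN1, on chromosome 2 (52506528 to 52531560), encodes talin 1. It measured 837, 858 and 636 CPM at 0 h and 759, 932 and 957 CPM at 1.5 h. At 3.5 h it measured 844, 908 and 611 CPM, and at 5.5 h 785, 913 and 629 CPM. The groups overlapped, and number 3 was the lowest library at 0, 3.5 and 5.5 h and the highest at 1.5 h. On the log2 scale TLN1 differed from 0 h by 0.18 ± 0.19 at 1.5 h, 0.02 ± 0.19 at 3.5 h and −0.00 ± 0.19 at 5.5 h. Without the 1.5 h library numbered 3 and with the block, the first was −0.02 ± 0.08.

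VCL encodes vinculin. It measured 263, 327 and 235 CPM at 0 h and 253, 388 and 428 CPM at 1.5 h. The values were 306, 428 and 270.0 CPM at 3.5 h and 298, 401 and 274 CPM at 5.5 h. Every pair was positive at 3.5 h (0.22, 0.39 and 0.20) and at 5.5 h (0.18, 0.29 and 0.22), while at 1.5 h pair 1 was at −0.05 and pair 3 at 0.86. As the libraries numbered 2 lay highest at 0, 3.5 and 5.5 h, the groups still overlapped. The log2 difference from 0 h was 0.37 ± 0.24 at 1.5 h, 0.28 ± 0.24 at 3.5 h and 0.24 ± 0.24 at 5.5 h (edgeR quasi-likelihood, adjusted p = 1.00 for the 2 later times). Over 23 alternative fits in edgeR, DESeq2 or limma, the lowest adjusted p of VCL was 0.255 at 3.5 h and 0.328 at 5.5 h. Without the 1.5 h library numbered 3, and with the block, the value at 1.5 h was 0.08 ± 0.08.

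ZYX encodes zyxin, a LIM-domain protein of mature adhesions and stress fibres. It measured 287, 296 and 194 CPM at 0 h and 325, 321 and 358 CPM at 1.5 h. These 2 groups did not overlap. At 3.5 h it measured 313, 316 and 236 CPM, and at 5.5 h 271, 333 and 212 CPM, both overlapping 0 h. The log2 difference from 0 h was 0.37 ± 0.20 at 1.5 h, with pairs of 0.18, 0.12 and 0.88, then 0.16 ± 0.20 at 3.5 h and 0.07 ± 0.20 at 5.5 h. The first of these was 0.18 ± 0.09 without the 1.5 h library numbered 3 and with the block. ZYX at 3.5 h also lay below 1.5 h without overlap (−0.22 ± 0.20), where 5.06% of all tested genes had no overlap, but its pairs 1 and 2 differed by −0.05 and −0.02 and pair 3 by −0.60 (edgeR quasi-likelihood, adjusted p = 1.00).

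PXN, which encodes paxillin, was among the steadiest members. Its CPM values were 78.1, 73.9 and 70.7 at 0 h, 73.9, 75.9 and 79.5 at 1.5 h, 89.0, 71.7 and 67.7 at 3.5 h and 76.9, 80.5 and 70.1 at 5.5 h. The mean stayed between 74.2 and 76.4 CPM, and the log2 differences from 0 h were 0.04, 0.04 and 0.03, each ± 0.11. The highest of the 12 values was 1.32 times the lowest.

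ILK encodes integrin-linked kinase, a pseudokinase that joins integrins to parvin and PINCH proteins. It measured 227, 258 and 230 CPM at 0 h and 252, 281 and 309 CPM at 1.5 h. At 3.5 h it measured 247, 280 and 219 CPM, and at 5.5 h 247, 286 and 237 CPM. Every pair was positive at 1.5 h (0.15, 0.13 and 0.43) and at 5.5 h (0.12, 0.15 and 0.04), though the groups overlapped at each time. ILK differed from 0 h by a log2 value of 0.24 ± 0.12 at 1.5 h, 0.06 ± 0.12 at 3.5 h and 0.11 ± 0.12 at 5.5 h. The first was 0.10 ± 0.07 without the 1.5 h library numbered 3 and with the block.

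PTK2 encodes focal adhesion kinase, the tyrosine kinase that phosphorylates paxillin with Src. It measured 106, 94.5 and 120 CPM at 0 h and 92.4, 97.5 and 99.95 CPM at 1.5 h. The values were 107, 91.6 and 113 CPM at 3.5 h and 101.1, 96.8 and 119 CPM at 5.5 h. All groups overlapped, and number 3 was the highest library at each time. On the log2 scale PTK2 differed from 0 h by −0.14 ± 0.12 at 1.5 h, −0.04 ± 0.12 at 3.5 h and −0.02 ± 0.12 at 5.5 h. PTK2 had the smallest spread of the set, the highest value being 1.31 times the lowest.

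**Figure D3:**
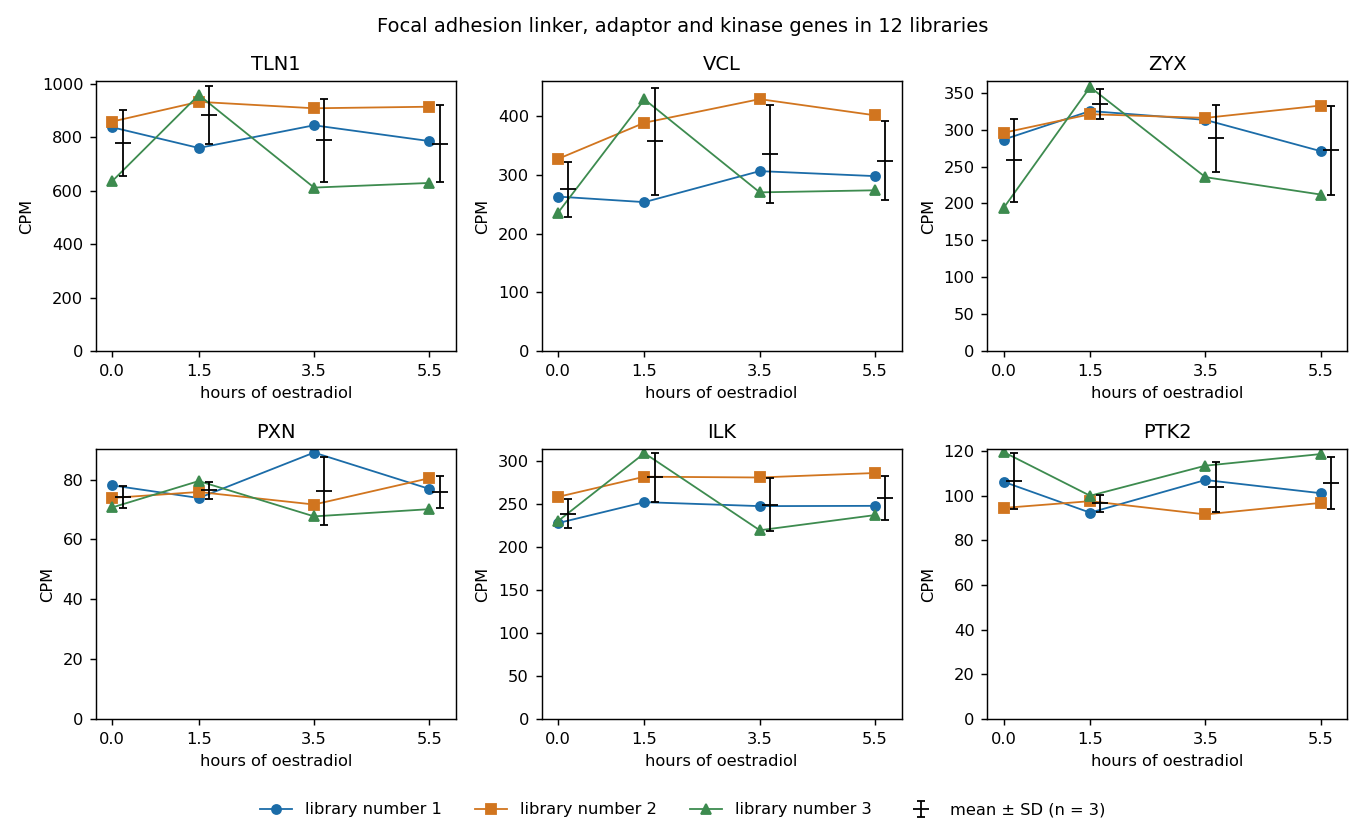
CPM of the 6 linker, adaptor and kinase genes against hours of oestradiol, 1 line per library number, with the mean ± SD of 3 libraries beside the points. The 1.5 h library numbered 3 is the highest of its line for TLN1, VCL, ZYX, PXN and ILK, and the ZYX values at 1.5 h (321 to 358 CPM) lie above those at 0 h (194 to 296 CPM).

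Counted over the set, none of the 10 members passed an adjusted p of 0.05 (edgeR quasi-likelihood) in any of the 5 tested comparisons. At 3.5 h against 0 h the share called over all 12025 genes was 0%, with 260 genes at an unadjusted p under 0.05 and 6 called by DESeq2. At 5.5 h against 0 h it was 0%, with 252 such genes and 7 called by DESeq2. Between 3.5 h and 1.5 h it was 0%, with 161 and 3, and between 5.5 h and 1.5 h 0%, with 210 and 2. With the number as a block, edgeR called 1 gene in the last of these, not a member. Between 5.5 h and 3.5 h it was 0%, with 92 and 1. At 1.5 h against 0 h, the comparison behind the choice, the share was 0% as well, with 287 genes at an unadjusted p under 0.05 and 1 called by DESeq2. With the number as a block, 1 gene was called there by edgeR and 96 by DESeq2. limma on log2(FPKM + 1) called 0 genes in each. In the authors' deposited table the q-value of every member was 1 at each time against 0 h. The authors' deposited enrichment table gave the focal adhesion pathway a p-value of 0.686, 0.327 and 0.469 at 1.5, 3.5 and 5.5 h, in each case on 1 gene that was not a member.

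The directions of the pairs were counted beside those of all tested genes. At 3.5 h against 0 h, TNS4, VCL and ZYX were higher in 3 of 3 pairs, 3 of 10 members, where 16.6% of all tested genes were, and TNS2 alone was lower, where 16.2% were. At 5.5 h against 0 h, VCL and ILK were higher in 3 of 3 pairs (background 15.9%) and TNS2 and TNS1 lower (background 15.1%). At 1.5 h against 0 h, ZYX and ILK were higher (background 14.3%) and TNS2 lower (background 13.7%), from which nothing is read. Against 0 h, groups without overlap were TNS2 and ZYX at 1.5 h (background 8.32%), TNS2 at 3.5 h (6.76%) and TNS2 at 5.5 h (6.92%). TNS2 was picked on the 0 h libraries, so its places in these counts are not independent of the choice. The median log2 difference of the 10 members from 0 h was 0.04 at 1.5 h, 0.05 at 3.5 h and 0.03 at 5.5 h, beside 0.00, 0.00 and 0.01 over all tested genes. Over the 12 libraries the highest CPM of a member was a median 1.58 times its lowest, beside 1.66 times for the 11891 tested genes with no library at 0.

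**Figure D4:**
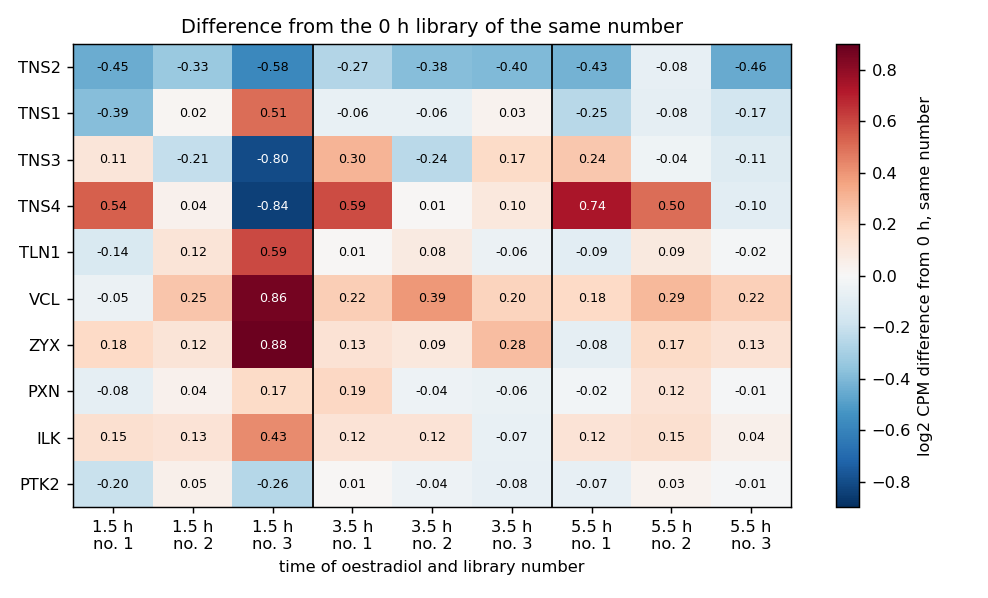
Log2 CPM difference of each member from the 0 h library of the same number, for 3 pairs at each time of oestradiol (red higher, blue lower). TNS2, picked on 1.5 h against 0 h, is negative in all 9 cells (−0.08 to −0.58). The cells furthest from 0 lie in the 1.5 h column of number 3. There ZYX is at 0.88, VCL at 0.86, TNS3 at −0.80 and TNS4 at −0.84.

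The 1.5 h library numbered 3 split the set. In it TNS1, TLN1, VCL, ZYX, PXN and ILK, 6 of 10 members, lay above the other 3 libraries of number 3, as did 33.4% of all tested genes. TNS2, TNS3, TNS4 and PTK2 lay below the other 3, as did 33.2%. In number 1 the 1.5 h library was above its 3 partners for ZYX and ILK and below them for 6 members, beside 28.6% and 28.4% of all tested genes. In number 2 it was above them for TNS1, TLN1 and PTK2 and below them for none, beside 22.8% in each direction. The summed smooth muscle and fibroblast markers were high in the same library, as given above, and their part in the members' values was not tested. Without that library and without a block, the log2 difference from 0 h at 1.5 h was 0.32 ± 0.23 for ZYX, 0.22 ± 0.26 for VCL, 0.16 ± 0.13 for ILK and 0.12 ± 0.22 for TLN1. The same fit gave −0.42 ± 0.13 for TNS2, −0.19 ± 0.23 for TNS3, −0.05 ± 0.19 for TNS1 and 0.04 ± 0.36 for TNS4. PXN, ILK and PTK2 spread the least among the members over the 12 libraries, at 1.32, 1.41 and 1.31 times from lowest to highest.

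**Figure D5:**
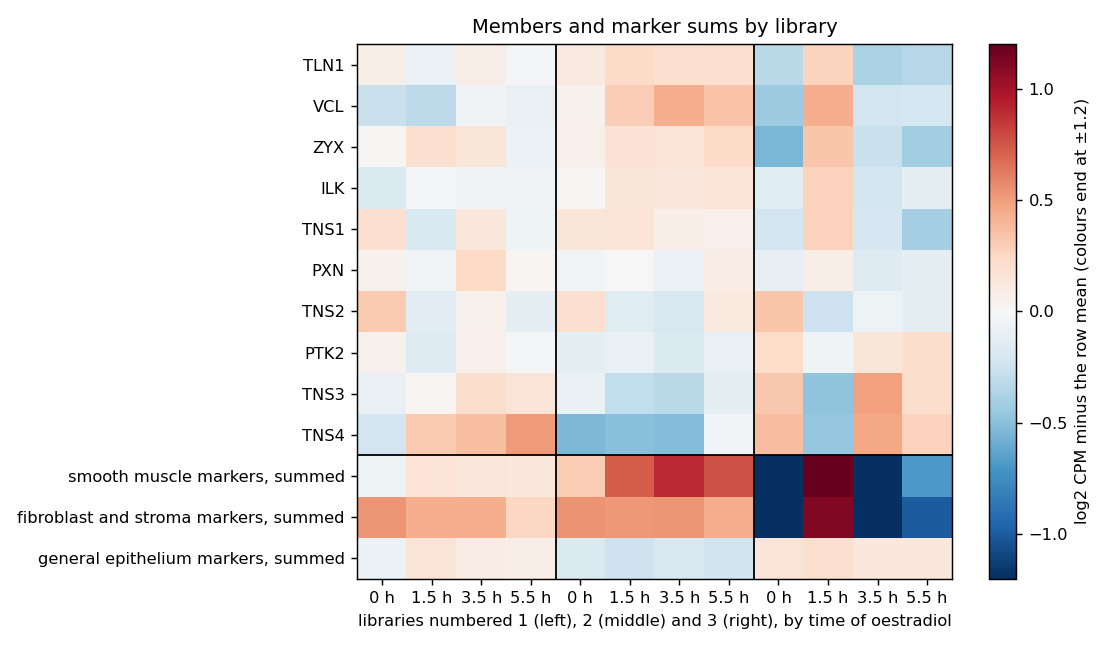
Log2 CPM of the 10 members, and of the summed markers of smooth muscle, of fibroblast and stroma and of general epithelium, minus each row's mean, in the 12 libraries ordered by number and time (colours end at ±1.2). In number 3 the smooth muscle row and the fibroblast and stroma row are low at 0, 3.5 and 5.5 h. Both are high at 1.5 h (smooth muscle 1909 CPM), where TLN1, VCL, ZYX, ILK and TNS1 are also high and TNS3 and TNS4 low.

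Of the transcripts listed for the members, 8 genes had 1 each, and TNS4 and VCL had 2. Most TNS4 libraries drew on ENSOART00000015950, a model of 12 exons and 2349 bases, which held 91.4% to 94.8% of the gene's FPKM at 1.5 h and 92.9% to 93.5% at 3.5 h. The other TNS4 model, ENSOART00000015951 (13 exons, 2151 bases), had a median share of 7.26% but reached 62.6% in the 0 h library numbered 3 and 71.5% in the 5.5 h library numbered 2. In those libraries it stood at 103 and 88.2 FPKM, against 5.83 to 13.4 FPKM in the other 10. Whether these shares reflect the transcripts or the way the authors divided reads between the models was not tested. The gene's total in the same libraries was 156 and 116 FPKM, within the range of 81.6 to 168 FPKM over all 12. For VCL, ENSOART00000009339 (19 exons, 2907 bases) held 77.9% to 82.9% of the gene in every library and ENSOART00000009336 (21 exons, 3261 bases) the rest. The share of that longer model was 17.1% to 19.3% at 0 h, 19.7% to 20.8% at 1.5 h, 19.5% to 22.1% at 3.5 h and 19.8% to 20.2% at 5.5 h. This share was compared with no other transcripts, and whether it reflects the transcripts or the authors' division of reads was not tested.

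Genes of the same pathway were listed by role. Of 13 integrin receptors, 12 were tested, and 0 were called in edgeR at any time; 7 were higher and 5 lower at 1.5 h than at 0 h, with 6 and 6 at 3.5 h and 5 and 7 at 5.5 h. ITGB1, the beta chain shared by most matrix receptors, stood at 526 FPKM and differed from 0 h by 0.19 ± 0.13, 0.09 ± 0.13 and 0.09 ± 0.13 at the 3 times. ITGA3, its laminin-binding partner, stood at 256 FPKM and stayed within 0.05 ± 0.15 of 0 h. ITGAV, an alpha chain for fibronectin, vitronectin and osteopontin, measured 1650 ± 376 CPM at 0 h and 1298 ± 131 CPM at 5.5 h (SD, n = 3). That difference was −0.35 ± 0.18, with pairs of −0.53, −0.37 and −0.07 (edgeR quasi-likelihood, adjusted p = 1.00).

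Matrix ligands were abundant: osteopontin (SPP1) averaged 19999 FPKM and fibronectin (FN1) 6485 FPKM. Of 12 tested ligands 0 were called, and 9, 6 and 3 were higher than at 0 h at the successive times, beside 50.4%, 51.1% and 52.2% of all tested genes. The list's median at 1.5 h was −0.10, 0.05 and 0.42 in the pairs numbered 1, 2 and 3. Without the 1.5 h library numbered 3, and with the block, 5 of 12 were higher at 1.5 h with a median of −0.04. Without that library and without a block it was 9 of 12 with a median of 0.12. Numbers 1 and 2 alone with the block gave 5 of 12 with a median of −0.01. FN1 differed from 0 h by 0.14 ± 0.32, −0.07 ± 0.32 and −0.14 ± 0.32, and its pair numbered 3 at 1.5 h was 0.72. SPP1 stayed within 0.02 ± 0.16 of 0 h.

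Of the 8 tested integrin activators and partners of the ILK complex, 0 were called, and 5, 3 and 4 were higher at 1.5, 3.5 and 5.5 h than at 0 h. FERMT2 (kindlin 2, which activates integrins with talin) was higher in all 3 pairs at each of the 3 times, at 0.21 ± 0.14, 0.27 ± 0.14 and 0.12 ± 0.14 (edgeR quasi-likelihood, adjusted p = 1.00 at 3.5 and 5.5 h). In its list 2, 1 and 1 genes were higher in all 3 pairs at those times and 0, 3 and 0 lower. PARVA, the parvin that binds ILK, stayed within 0.07 ± 0.14 of 0 h. RSU1, which binds PINCH, differed by 0.22 ± 0.16, 0.04 ± 0.16 and 0.00 ± 0.16.

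The actin linkers, a list that held 15 tested genes, had the same sign throughout at 1.5 h. All 15 were higher than at 0 h, with a median of 0.22, beside 50.4% of all tested genes and a median of 0.00, and 0 were called. All 15 were lower at 3.5 h and at 5.5 h than at 1.5 h, with medians of −0.20 and −0.18, where 51.6% of all tested genes were higher in each comparison. The list's median at 1.5 h was 0.05 in the pair numbered 1, 0.12 in that numbered 2 and 0.49 in that numbered 3. In all 3 pairs 9 of the 15 were higher and 0 lower, beside 14.3% and 13.7% of all tested genes. Without the 1.5 h library numbered 3, and with the block, 12 of 15 were higher than at 0 h with a median of 0.05. Without that library and without a block it was 14 of 15 with a median of 0.20, and in numbers 1 and 2 alone with the block 14 of 15 with a median of 0.10. At 3.5 h against 1.5 h, the same 3 fits put 7, 3 and 9 of 15 higher, with medians of −0.01, −0.13 and 0.01. The smooth muscle sum was also higher at 1.5 h than at 0 h in every pair, at 935 against 796 CPM, 1374 against 1025 CPM and 1909 against 196 CPM. The fibroblast and stroma sum was lower in pairs 1 and 2 (86.5 against 92.2 CPM and 92.0 against 93.2 CPM) and higher in pair 3. The general epithelium sum was higher in pairs 1 and 3 and lower in pair 2 (13816 against 14518 CPM). The part of these sums in the list's values was not tested. Filamin A (FLNA) of the list differed from 0 h by 0.30 ± 0.22 at 1.5 h, with pairs of −0.06, 0.16 and 0.79. LASP1, a LIM and SH3 protein of adhesions, differed by 0.20 ± 0.13 and the crosslinker ACTN4 by 0.07 ± 0.08.

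Of 16 tested adhesion kinases and scaffolds, 0 were called, and 6, 5 and 7 were higher than at 0 h at the successive times. In all 3 pairs, 1, 2 and 2 were higher and 2, 3 and 5 lower. Of all tested genes, 14.3%, 16.6% and 15.9% were higher in all 3 pairs and 13.7%, 16.2% and 15.1% lower. NEDD9, a scaffold of the p130Cas family, measured 573 ± 43.3 CPM at 0 h and 693 ± 67.3 CPM at 1.5 h, and was higher in every pair at each time (0.28 ± 0.13, 0.17 ± 0.13 and 0.12 ± 0.13). PAK2, a kinase of actin turnover, differed by −0.11 ± 0.14, −0.06 ± 0.14 and 0.01 ± 0.14, and the adaptor CRK by −0.10 ± 0.09, −0.05 ± 0.09 and −0.02 ± 0.09.

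Of 7 tested tensin binding partners, 0 were called, and 4 were higher than at 0 h at each time. The growth factor receptors EGFR and MET stood at 28.6 and 31.8 FPKM and beta-catenin (CTNNB1) at 312 FPKM. EGFR differed from 0 h by −0.21 ± 0.14 at 1.5 h, with −0.68 in the pair numbered 3, and by −0.01 ± 0.14 and −0.04 ± 0.14 later. MET stayed within 0.05 ± 0.16 and CTNNB1 within 0.06 ± 0.09. Of 10 actin-responsive genes, targets of the transcription factors that follow actin tension, 0 were called and 5, 5 and 4 were higher. CCN1 measured 1226 ± 129 CPM at 0 h and 1451 ± 98.3 CPM at 1.5 h, and was higher in every pair at each time (0.24 ± 0.13, 0.18 ± 0.13 and 0.15 ± 0.13). Of the 10 actin-responsive genes, 4, 2 and 1 were higher in all 3 pairs at the successive times and 1, 0 and 1 lower. CCN2 differed by 0.19 ± 0.23, −0.05 ± 0.23 and −0.06 ± 0.23, and ANKRD1 by −0.12 ± 0.23, 0.08 ± 0.23 and 0.04 ± 0.23.

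The genes whose pattern was most like that of TNS2 were found by Pearson's r of log2 CPM after the mean of each library number was taken away, over 12 libraries and all tested genes. They were LAMA5 (r = 0.941), FYCO1 (0.939), RAB3IP (0.939), TMEM164 (0.923) and UBQLN4 (0.915). LAMA5, a laminin chain of epithelial basement membranes, measured 372 ± 8.91 CPM before oestradiol and 329 ± 15.5, 335 ± 18.4 and 346 ± 22.0 CPM at the successive times (SD, n = 3). FYCO1, an adaptor for vesicle transport on microtubules, measured 33.7 ± 1.80, 26.6 ± 2.47, 28.5 ± 1.27 and 28.7 ± 1.39 CPM. RAB3IP, an exchange factor for a Rab GTPase, measured 53.8 ± 13.0 CPM at 0 h and 44.2 ± 6.70 at 1.5 h. Its r without the centring was 0.345, against 0.911 for LAMA5. Without the centring the 5 most alike were LAMA5, FYCO1, RARG, UBQLN4 and TRAPPC10, of which 3 were shared. The 12 points share libraries, numbers and depth, and the ranking was made over all tested genes, so these values describe a likeness only.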

How the data were processed

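RNA was sequenced from 12 libraries, 3 at each of 4 times. Per the submitters' processing notes, TopHat2 2.0.9 and Cufflinks were used, with no role stated. No source used here gives the genome build, counting tool or strandedness, so reads of overlapping or antisense genes cannot be separated. By gene, the authors' deposited table holds whole-number counts and FPKM, per the file headers, and a second deposited table FPKM per transcript. The authors' deposited comparison tables hold a log2 ratio of mean FPKM, p-values and q-values from a test that is not stated. Not used here were 42 other per-sample columns. Of 18340 genes, 4788 had no symbol, and 1145 of them were named by NCBI gene number from a RefSeq table (ARS-UI_Ramb_v3.0), used for names only.

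Counts were scaled by TMM (factors 0.975 to 1.02) and tested in 1 model of the 4 times without a block (edgeR 4.0.16 quasi-likelihood, trended dispersion, R 4.3.3) over the 12025 genes whose FPKM averaged 1 or more. P-values were Benjamini-Hochberg adjusted over all of them and called under 0.05. CPM used TMM-scaled totals. Log2 CPM had a prior count of 2 for likeness, counts of pair directions and list medians per pair. The pair differences printed for single genes used log2 CPM without it. DESeq2 1.42.0, limma 3.58.1, other filters and scalings, left-out libraries and the replicate block were alternatives, and the scripts were tested on simulated data.

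Numbers 1 to 3 come from the sample titles. Deviations from the time means correlated at 0.218 to 0.705 over the 18 pairs of libraries sharing a number and at −0.600 to 0.331 over the other 36. All 18 passed 0.1, so the numbers were taken as pairs, though the main model held no block for them. No libraries of a time agreed within counting error (chi-square divided by its degrees of freedom, 40.2 to 307).

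The members and lists were chosen with earlier results of these data known. All members, the 3 most abundant tested genes of each list by FPKM and the 5 genes most like TNS2 are named. A result that this rule would name is not reported here.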

Additional observations from a re-analysis of the deposited data

How the results depend on the processing

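No member was called in any of the 5 tested comparisons under any of the 23 alternatives, except that TNS2 could be tested in 22, since its mean of 4.96 FPKM is below the filter of 5. Of 1374 values of members under alternatives, 1348 moved by less than 1 SE, 23 moved further and 3 beyond 1 SE of 0 changed sign. All 3 concern 5.5 h against 1.5 h. With numbers 1 and 2 alone and the replicate block, TNS1 went from −0.21 to 0.0137 and ILK from −0.13 to 0.00035. With the block and without the 1.5 h library numbered 3, an alternative added after seeing the data, TNS1 was at 0.0017. Of the values within 1 SE of 0, 76 changed sign by less than that SE and 17 by more. Calls over all genes, 0 without a block in edgeR, depended on the tool and the pairing. For 3.5 h and 5.5 h against 0 h, 3.5 h and 5.5 h against 1.5 h, and 5.5 h against 3.5 h, DESeq2 called 6, 7, 3, 2 and 1, and DESeq2 with the replicate block 34, 32, 7, 9 and 4. The replicate block in edgeR called 1 at 5.5 h against 1.5 h. Numbers 1 and 2 alone with the block called 28, 71 and 1 (3.5 h and 5.5 h against 0 h, 5.5 h against 1.5 h). The added alternative called 12 at 5.5 h against 0 h and 1 at 3.5 h against 1.5 h, and the 6 libraries of 5.5 h and 3.5 h alone called 1. Leaving out 1 library at a time gave 0 to 1 (5.5 h against 0 h, 3.5 h against 1.5 h, 5.5 h against 3.5 h) or 0 to 2 (5.5 h against 1.5 h), above 0 without number 1 of 5.5 h or number 3 of 1.5 h. The causes were not tested. At 1.5 h against 0 h, the comparison behind the choice, DESeq2 called 1 gene, the replicate block in edgeR 1 and the replicate block in DESeq2 96. In edgeR the block changed no other count of calls. Members had at least 916 counts in each library, and the SEs of their log2 differences were 0.11 to 0.32.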
